A study of Mus musculus with 27 samples.

Results

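The genes described here are 10 members of the Wnt pathway, chosen by symbol out of the 24953 genes in a table of TPM values (transcript abundance scaled for gene length and library size): the nuclear factors Lef1, Tcf7, Tcf7l1 and Tcf7l2, the feedback inhibitor Axin2, the ligands Wnt4, Wnt7b and Wnt5a, and the secreted antagonists Dkk1 and Sfrp1. All 10 symbols were found in the table. They were measured by RNA-seq in mK4 cells, a mouse line derived from metanephric mesenchyme, the embryonic tissue that turns into the epithelium of the nephron. The control group was the parental line. Runx1KO cells carried a CRISPR deletion of Runx1 exon 3, which holds the start codon used in these cells. ZebDKO cells carried CRISPR deletions of the exons with the start codons of both Zeb1 and Zeb2, with Runx1 left in place. There were 3 libraries in each group. How many clones of each knockout were sequenced is not given in the sources used here. The genotype and the clone therefore cannot be told apart. Per the study's methods, the cells of each group were cultured in triplicate. The p-values set a difference against the spread between the 3 libraries of a group, which may hold no spread between clones. Open chromatin (ATAC-seq) and binding of Runx1 and Runx2 (ChIP-seq) were mapped in control and Runx1KO cells but not in ZebDKO cells.

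Wnt ligands bind Frizzled receptors with an Lrp co-receptor, which stops the destruction complex from degrading beta-catenin. Beta-catenin then enters the nucleus and binds the TCF/LEF family of DNA-binding factors, of which Lef1 and Tcf7 are mostly linked to activation and Tcf7l1 mostly to repression, and the targets that follow include Axin2, an inhibitor in the destruction complex. Secreted frizzled-related proteins and Dkk proteins block the ligand or the co-receptor. In the developing kidney, Wnt9b from the ureteric bud starts the conversion of mesenchyme to epithelium, and Wnt4 made by the mesenchyme drives it on.

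Between 12541 and 12697 genes reached 1 TPM per library, and libraries of a group correlated at r = 0.994 to 0.996 on the log2(TPM + 1) scale. Runx1 was listed at 15.6 to 18.7 TPM in control, 28.5 to 30.3 in Runx1KO and 9.4 to 10.5 in ZebDKO, and gene-level TPM sums over all exons, so it does not test the deletion of exon 3. Zeb1 was at 14.2 to 15.6 TPM in control and 14.8 to 16.8 in ZebDKO, where the edit is likewise not visible in this unit, and at 0.1 to 0.2 in Runx1KO. Zeb2 was at 4.9 to 5.5, 1.6 to 1.8 and 0.2 TPM in control, ZebDKO and Runx1KO. Of 12 metanephric mesenchyme and nephron progenitor markers, 6 were at 1 TPM or more in control, and Six2, the defining nephron progenitor factor, stayed between 0 and 0.2 TPM in all 9 libraries. In Runx1KO 3 of the 6 tested were called lower (50%, beside 5.10% of all tested genes) and 0 higher (beside 7.91%). In ZebDKO 1 was lower (16.7%, beside 7.28%) and 1 higher (16.7%, beside 7.50%). Osr1 was at 64.1 to 70.9, 0.3 to 0.5 and 17.1 to 18.9 TPM in control, Runx1KO and ZebDKO, and Gdnf at 11.4 to 13.6, 0.1 and 38.6 to 41.4. Other cell states moved with genotype. The summed TPM of 12 epithelial markers was 9.2 to 12.6 in control, 2718 to 2797 in Runx1KO and 1240 to 1297 in ZebDKO. Most of the knockout sums came from Krt8 (2302.3 to 2393.5 TPM in Runx1KO and 1026.5 to 1086.7 in ZebDKO). All 8 tested were called higher in Runx1KO (100%, beside 7.91% of all tested genes) and all 6 in ZebDKO (100%, beside 7.50%). Cdh1 stayed between 0.1 and 0.6 TPM. Epcam was listed at 0 in control and Runx1KO but stood at 26.7 to 28.8 TPM in ZebDKO. Over 10 mesenchymal markers, Zeb1 and Zeb2 among them, the sum was 4122 to 4196, 3306 to 3362 and 3043 to 3095 TPM in the same order, most of it from Vim (2749 to 2887, 2782 to 2845 and 2076 to 2114 TPM). By gene, 5 of the 8 tested were called lower in Runx1KO (62.5%, beside 5.10% of all tested genes, median difference -1.44). In ZebDKO 1 was lower (12.5%, beside 7.28%, median -0.16), and 0 were higher in either. Ureteric bud markers summed to 23.2 to 38.9 TPM across the 9 libraries with Ret and Wnt9b at 0 in every one. The part these states play in the Wnt gene values was not tested, and in bulk RNA fewer cells of a kind and less RNA per cell cannot be told apart.

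In Runx1KO cells Lef1 and Wnt5a all but disappeared, Sfrp1 was listed at 0, Axin2 and Tcf7l1 fell, and Wnt7b and Tcf7 rose. ZebDKO cells shared the loss of Axin2, Sfrp1 and Wnt5a and the rise of Wnt7b, and in them Wnt4 fell as well. A gene was called when limma's moderated test on log2(TPM + 1), run over all genes at 1 TPM or more in at least 3 of the 6 libraries compared, gave a difference over 2-fold with a Benjamini-Hochberg adjusted p under 0.05 (two-sided). Of the 10 genes, 9 could be tested in each comparison with control (Dkk1 could not). In Runx1KO 2 were called higher, where 7.91% of the 13067 tested genes were, and 5 were called lower, where 5.10% were. In ZebDKO 1 was called higher (7.50% of 12974 tested genes) and 4 lower (7.28%). The median difference of the 9 genes was -1.40 in Runx1KO and -0.79 in ZebDKO, beside medians over all tested genes of -0.059 and -0.18. Scaling the libraries by median ratios removed the ZebDKO shift (median 0.00043) and turned the calls over all genes from 973 higher and 944 lower to 1181 higher and 664 lower but left all 5 calls among the Wnt genes. The libraries of Runx1KO and control did not overlap for 8 of the 9 tested genes, where 73.7% of all tested genes were apart. Those of ZebDKO and control did not overlap for all 9, where 81.0% were apart. Both comparisons use the same 3 control libraries.

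**Figure D1:**
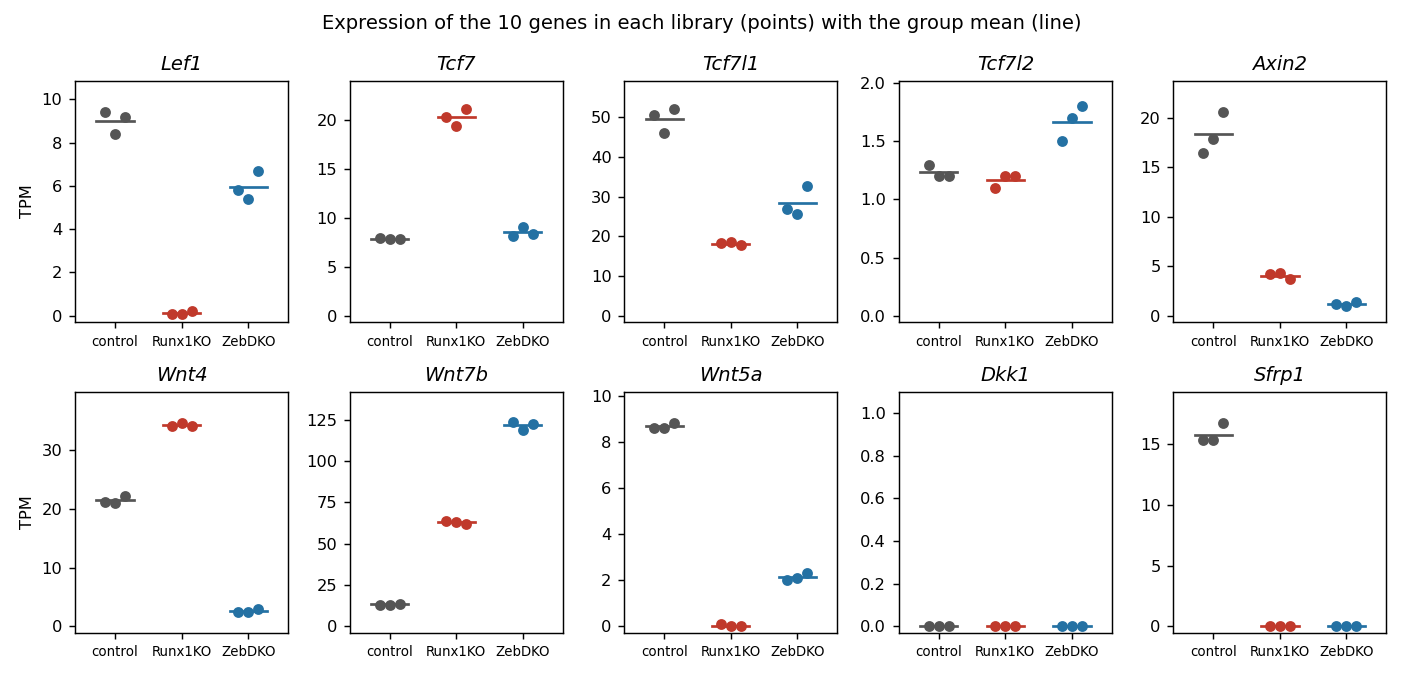
TPM (y axis, from 0, a scale of its own in each panel) of the 10 genes in control, Runx1KO and ZebDKO libraries. Points are single libraries and lines are group means (n = 3). Lef1 sits at 0.1 to 0.2 in Runx1KO but at 5.4 to 6.7 in ZebDKO, Wnt4 is highest in Runx1KO and lowest in ZebDKO, and Dkk1 is at 0 throughout.

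Lef1, the TCF/LEF factor that is itself a Wnt target in many tissues, was at 9.4, 8.4 and 9.2 TPM in the control libraries, at 0.1, 0.1 and 0.2 in Runx1KO, and at 5.8, 5.4 and 6.7 in ZebDKO. Every Runx1KO library lay far below every other, and the ZebDKO libraries lay below the controls by much less. Lef1 fell by 3.14 (SE 0.079) on the log2(TPM + 1) scale in Runx1KO (adjusted p = 1.02e-07), a scale that understates the change of a gene this low. In ZebDKO the difference was -0.52 (SE 0.084, adjusted p = 0.00073), under the 2-fold limit. The gene (ENSMUSG00000027985.8) spans chr3:130813389-130927274 on the plus strand of mm9.

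Lef1 was surrounded by regions that closed without Runx1. Open regions were grouped by the authors into those lost in Runx1KO (Runx1-dependent), those gained (Runx1KO-induced) and those kept (Runx1-independent), and a region was placed near a gene if its centre lay in the gene's domain (5 kb before to 1 kb after the start, extended to the neighbouring gene's domain by up to 1000 kb). Around Lef1 lay 11 dependent, 0 induced and 12 independent regions. One dependent region of 694 bp was centred 65 bp before the start, another of 1570 bp lay 1400 bp into the first intron, and no independent region lay within 20 kb of the start. No Runx1 peak of the Lef1 domain lay within 100 kb of the gene. The 3 Runx1 peaks in its domain, at 177.6, 159.4 and 158.9 kb upstream, were all on dependent regions, with enrichments over background of 3.81-, 7.28- and 6.43-fold and −log10 q-values of 3.57, 21.19 and 16.71. Both of those open regions also had a Runx2 peak in control (4.71- and 6.32-fold) and kept one in Runx1KO (3.57- and 5.21-fold). Peaks were called on pooled replicates, so these values have no replicate error.

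The 3 Runx1 peaks near Lef1 are shown because they are the only Runx1 binding listed in the domain of Lef1, which was close to 0 without Runx1. They lie at chr3:130635772-130635902, chr3:130653886-130654185 (the central 300 bases of the peak) and chr3:130654405-130654611, all intergenic, and are printed on the plus strand of mm9 with capitals for the Runx core TGTGGT on either strand (ACCACA on the other).
Lef1, 177.6 kb upstream: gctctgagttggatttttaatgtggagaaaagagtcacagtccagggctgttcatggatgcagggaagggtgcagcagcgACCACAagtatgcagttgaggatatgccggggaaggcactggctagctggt
Lef1, 159.4 kb upstream: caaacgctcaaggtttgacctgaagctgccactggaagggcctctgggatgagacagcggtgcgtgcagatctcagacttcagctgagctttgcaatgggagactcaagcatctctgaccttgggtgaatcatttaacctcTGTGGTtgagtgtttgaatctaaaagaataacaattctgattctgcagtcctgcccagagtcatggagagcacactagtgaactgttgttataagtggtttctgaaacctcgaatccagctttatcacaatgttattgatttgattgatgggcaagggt
Lef1, 158.9 kb upstream: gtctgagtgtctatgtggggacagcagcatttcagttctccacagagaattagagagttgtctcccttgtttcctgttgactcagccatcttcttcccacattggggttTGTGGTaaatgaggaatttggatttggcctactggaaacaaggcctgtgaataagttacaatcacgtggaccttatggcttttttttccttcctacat
Each of the 3 held 1 core. Among all 9973 Runx1 peaks scanned the same way 32.6% held one, and among the 1061 that lie on dependent regions 72.9% did.

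The 300 bases before the start of Lef1, chr3:130813089-130813388 on the plus strand, are shown because they overlap a dependent region at the gene that lost nearly all of its RNA without Runx1. Capitals mark the E-box words CAGGTA and CAGGTG that ZEB factors bind, on either strand (TACCTG and CACCTG on the other).
Lef1, before the start: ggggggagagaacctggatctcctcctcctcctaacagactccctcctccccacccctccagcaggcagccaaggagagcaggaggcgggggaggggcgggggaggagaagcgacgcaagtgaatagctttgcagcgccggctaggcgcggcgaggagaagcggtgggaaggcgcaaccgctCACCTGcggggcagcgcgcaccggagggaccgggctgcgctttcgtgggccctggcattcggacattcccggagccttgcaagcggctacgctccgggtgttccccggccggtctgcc
They held 1 ZEB word and no Runx core. At least 1 ZEB word was found before the start of 25.4% of the 10708 tested genes with a position. A match of letters is a description of the sequence and does not show binding.

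Tcf7l1, the family member best known as a repressor, was the most abundant of the 4 factors at 50.6, 46.1 and 52.1 TPM in control. Its level was 18.3, 18.5 and 17.8 TPM in Runx1KO and 26.9, 25.6 and 32.7 TPM in ZebDKO, so that both knockouts lay below the controls and Runx1KO lay below ZebDKO, with no overlap. The mean was 2.73-fold lower in Runx1KO (log2 difference -1.40, SE 0.051, adjusted p = 5.85e-07). In ZebDKO it was 1.75-fold lower (log2 difference -0.79, SE 0.093, adjusted p = 0.00014), which did not reach the 2-fold limit. Of 7 dependent regions in the Tcf7l1 domain, 6 lay in its introns, beside 1 induced region centred 5892 bp upstream and 5 independent regions, one of them across the start.

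Both Runx1 peaks of Tcf7l1 (ENSMUSG00000055799.6, chr6:72576372-72739248, minus strand) lay in introns on dependent regions, at 129.1 and 77.7 kb past the start. Their enrichments were 7.27- and 4.44-fold with −log10 q-values of 12.60 and 4.14. Runx2 was called at the first of them in control (9.19-fold) and in Runx1KO (8.78-fold), and at the second likewise (4.34-fold, against 3.40- and 4.08-fold for 2 neighbouring peaks in Runx1KO). Another dependent region, centred 45145 bp into the gene, had Runx2 alone in both cell types (4.53- and 3.66-fold). The 2 Runx1 peaks, at chr6:72610035-72610334 (central 300 bases) and chr6:72661520-72661629, follow on the minus strand with Runx cores in capitals.
Tcf7l1, 129.1 kb into the gene: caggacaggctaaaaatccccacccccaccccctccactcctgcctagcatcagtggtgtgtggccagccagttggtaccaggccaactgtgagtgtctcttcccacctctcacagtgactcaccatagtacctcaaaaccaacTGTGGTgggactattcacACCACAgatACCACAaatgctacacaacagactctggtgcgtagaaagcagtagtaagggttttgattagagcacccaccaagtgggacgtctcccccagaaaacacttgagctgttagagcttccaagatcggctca
Tcf7l1, 77.7 kb into the gene: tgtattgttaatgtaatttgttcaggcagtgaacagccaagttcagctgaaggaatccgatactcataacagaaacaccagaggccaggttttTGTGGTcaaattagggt
The stronger peak carried 3 cores, 2 of them 3 bases apart on the opposite strand, and the weaker carried 1.

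Tcf7 was the only one of the 4 factors called higher, and in Runx1KO alone. It stood at 7.9, 7.8 and 7.8 TPM in control, 20.3, 19.4 and 21.1 in Runx1KO and 8.1, 9.1 and 8.3 in ZebDKO. The Runx1KO libraries were apart from all others, at 2.59 times the control mean (log2 difference 1.27, SE 0.046, adjusted p = 5.63e-07), whereas ZebDKO differed from control by 0.10 (95% confidence interval -0.036 to 0.24, adjusted p = 0.14). In a second deposited TPM table of the same 6 control and Runx1KO libraries Tcf7 was more variable, at 13.86, 7.54 and 16.81 TPM against 21.03, 21.12 and 33.13, and the difference of 0.96 (SE 0.27, adjusted p = 0.0135) missed the 2-fold limit. Its start was covered by an independent region, and 2 induced and 1 dependent region lay in the domain. The single Runx1 peak was on an independent region 50.8 kb upstream (5.79-fold).

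Tcf7l2 was listed at 1.1 to 1.8 TPM in all 9 libraries and was called in no comparison. Its values were 1.3, 1.2 and 1.2 TPM in control, 1.1, 1.2 and 1.2 in Runx1KO and 1.5, 1.7 and 1.8 in ZebDKO. Only the ZebDKO libraries stood above the controls, by 0.25 on the log2 scale (SE 0.086, adjusted p = 0.0276). The second table lists the same gene at 16.44 to 19.09 TPM in control and Runx1KO, so the rank of Tcf7l2 among the factors depends on the table. The domain held 9 dependent, 6 induced and 18 independent regions. An independent region of 794 bp covered the start, and a dependent region of 2039 bp was centred 1549 bp past it.

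Axin2, the general readout of beta-catenin activity in many tissues, fell in both knockouts and further in ZebDKO. Control libraries had 16.5, 17.9 and 20.6 TPM, Runx1KO 4.2, 4.3 and 3.7, and ZebDKO 1.2, 1.0 and 1.4. The 3 groups did not overlap. The mean was 4.51-fold lower in Runx1KO (log2 difference -1.93, SE 0.090, adjusted p = 2.03e-06) and 15.3-fold lower in ZebDKO (-3.13, SE 0.10, adjusted p = 2.64e-07). Near Axin2 (ENSMUSG00000000142.9, chr11:108781663-108812097, plus strand) an independent region of 1400 bp covered the start, the 2 dependent regions were centred 60.4 kb past and 460.6 kb before it, and the stronger of its 2 Runx1 peaks (7.30-fold), 167.8 kb upstream, was on an independent region. Lef1 by comparison had a dependent region across its start.

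The list of general targets of beta-catenin held 11 genes besides Axin2, Lef1, Tcf7 and Dkk1. Of these 6 were tested. In Runx1KO 0 were called higher (beside 7.91% of all tested genes) and 1 lower (16.7%, beside 5.10%), at a median difference of 0.18. In ZebDKO 2 were higher (33.3%, beside 7.50%) and 1 lower (16.7%, beside 7.28%), at a median of -0.25. Apcdd1, a surface inhibitor of Wnt, went the way of Axin2: 69.1, 69.2 and 79.2 TPM in control, 20.2, 19.6 and 19.1 in Runx1KO, and 5.7, 5.5 and 7.3 in ZebDKO (log2 differences -1.83 and -3.36, adjusted p = 3.19e-07 and 1.89e-07). Myc, a growth regulator, went the other way, at 38.6 to 40.6 TPM in control, 49.6 to 56.5 in Runx1KO and 179.7 to 188.3 in ZebDKO. The ZebDKO difference of Myc was 2.18 (SE 0.035, adjusted p = 1.7e-08), and that of 0.38 in Runx1KO was not called. Rnf43, a ubiquitin ligase that removes Frizzled receptors, was at 0.8 to 1.1 TPM in control and Runx1KO and 3.2 to 3.3 in ZebDKO (log2 difference 1.12, adjusted p = 1.62e-05).

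Wnt7b, a ligand made by epithelia of the collecting system, rose in both knockouts. Control libraries had 13.2, 13.2 and 13.6 TPM, Runx1KO 63.7, 63.4 and 61.8, and ZebDKO 123.5, 119.0 and 122.4. The groups were far apart, with means 4.72 and 9.12 times the control mean (log2 differences 2.16, SE 0.033, adjusted p = 1.32e-08, and 3.10, SE 0.035, adjusted p = 3.73e-09). It was the only one of the 10 genes called higher in both. Near Wnt7b (ENSMUSG00000022382.7, chr15:85365869-85412251, minus strand) 6 induced regions were listed, more than the 3 dependent ones but fewer than the 15 independent ones. One induced region of 1076 bp was centred 269 bp before the start and another of 496 bp lay 1355 bp past it. The only Runx1 peak was on an independent region 52.8 kb upstream, and the domain held 8 Runx2 peaks in control and 7 in Runx1KO.

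Wnt4, the ligand that carries kidney mesenchyme through its conversion to epithelium, moved in opposite directions. It was at 21.2, 21.0 and 22.2 TPM in control, 34.1, 34.7 and 34.1 in Runx1KO and 2.5, 2.5 and 2.9 in ZebDKO. All Runx1KO libraries lay above and all ZebDKO libraries below the controls. In ZebDKO Wnt4 was 8.15-fold lower (log2 difference -2.63, SE 0.065, adjusted p = 7.42e-08). In Runx1KO its mean was 1.6 times that of control (log2 difference 0.65, SE 0.036, adjusted p = 4.79e-06), which is under the 2-fold limit. Its start kept an independent region, with 3 induced regions at 60.2, 66.4 and 112.9 kb upstream and 7 dependent regions, the nearest in an intron 5675 bp past the start. A Runx1 peak 76.8 kb upstream (6.05-fold) was on an independent region where Runx2 had 7.22-fold enrichment in control and 9.56-fold in Runx1KO. A Runx2 peak just upstream of the start was listed in both cell types (3.46- and 4.26-fold).

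Wnt5a, a ligand that mostly signals without beta-catenin, was at 8.6, 8.6 and 8.8 TPM in control, 0.1, 0 and 0 in Runx1KO, and 2.0, 2.1 and 2.3 in ZebDKO. The order control, ZebDKO, Runx1KO was kept by every library. Wnt5a fell by 3.23 (SE 0.074, adjusted p = 6.85e-08) in Runx1KO and by 1.63 (SE 0.065, adjusted p = 7.24e-07) in ZebDKO on the log2(TPM + 1) scale. Its domain of 1389.8 kb held 13 dependent regions, of which 2 lay in the gene's introns at 1887 and 2934 bp past the start and 3 lay 14.1, 48.2 and 92.0 kb upstream. No induced or independent region was listed within 100 kb of the start. The only Runx1 peak on a dependent region was 680.7 kb upstream, in an intron of Erc2 at chr14:28637104-28637367 (5.55-fold), where Runx2 was called in control (6.96-fold) and in Runx1KO (8.10-fold). Placement at this distance is a rule of the domain and not a link to Wnt5a. It is shown on the plus strand because it held 2 Runx cores.
Wnt5a domain, 680.7 kb upstream: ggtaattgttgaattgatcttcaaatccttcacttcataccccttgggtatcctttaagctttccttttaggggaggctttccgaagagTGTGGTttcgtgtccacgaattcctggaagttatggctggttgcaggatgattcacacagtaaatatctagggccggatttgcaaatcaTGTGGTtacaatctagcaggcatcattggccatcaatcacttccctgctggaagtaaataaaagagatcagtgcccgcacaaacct

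Sfrp1, a secreted protein that binds Wnt ligands, was at 15.3, 15.3 and 16.7 TPM in control and was listed at 0 in all 6 knockout libraries. No fold change can be given against 0. The adjusted p-values were 1.66e-08 in Runx1KO and 1.94e-08 in ZebDKO. The second table also lists 0 in the Runx1KO libraries, against 6.25, 6.31 and 6.73 TPM in control. A listed 0 is read here only as listed, since Tmsb4x, a gene most cells express, was also at 0 in at least 1 library. A dependent region of 837 bp covered the start of Sfrp1 (ENSMUSG00000031548.7, chr8:24521974-24560104, plus strand), a second was centred 70.8 kb past it, and the domain held no induced region and no Runx peak of any kind. Dkk1 was listed at 0 in all 9 libraries and its domain held 0 dependent and 0 induced regions, so nothing could be compared.

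Set against each other, without the controls, the knockouts differed over 2-fold in 5 of the 8 genes that could be tested. Runx1KO was higher than ZebDKO for Wnt4 (log2 difference 3.28, SE 0.058, adjusted p = 2.54e-08), for Axin2 (1.21, SE 0.096, adjusted p = 1.7e-05) and for Tcf7 (1.16, SE 0.058, adjusted p = 1.63e-06). It was lower for Lef1 (-2.62, SE 0.097, adjusted p = 4.58e-07) and Wnt5a (-1.60, SE 0.096, adjusted p = 4.11e-06). Over all 13071 tested genes 9.20% were called higher and 6.59% lower, and by median-ratio scaling the 1203 higher and 861 lower calls became 912 and 1053. Quantile normalization took Tcf7 under the 2-fold limit (0.93, adjusted p = 2.6e-06). The other 3 differed at an adjusted p under 0.05 without reaching the limit, all lower in Runx1KO: Tcf7l1 (-0.61, SE 0.086, adjusted p = 0.000381), Tcf7l2 (-0.30, SE 0.085, adjusted p = 0.0133) and Wnt7b (-0.94, SE 0.029, adjusted p = 2.17e-07). Wnt7b passed the limit under median-ratio scaling (-1.10, adjusted p = 1.66e-07). For all 8 tested genes the libraries of the 2 knockouts did not overlap, where 81.7% of all tested genes were apart.

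**Figure D2:**
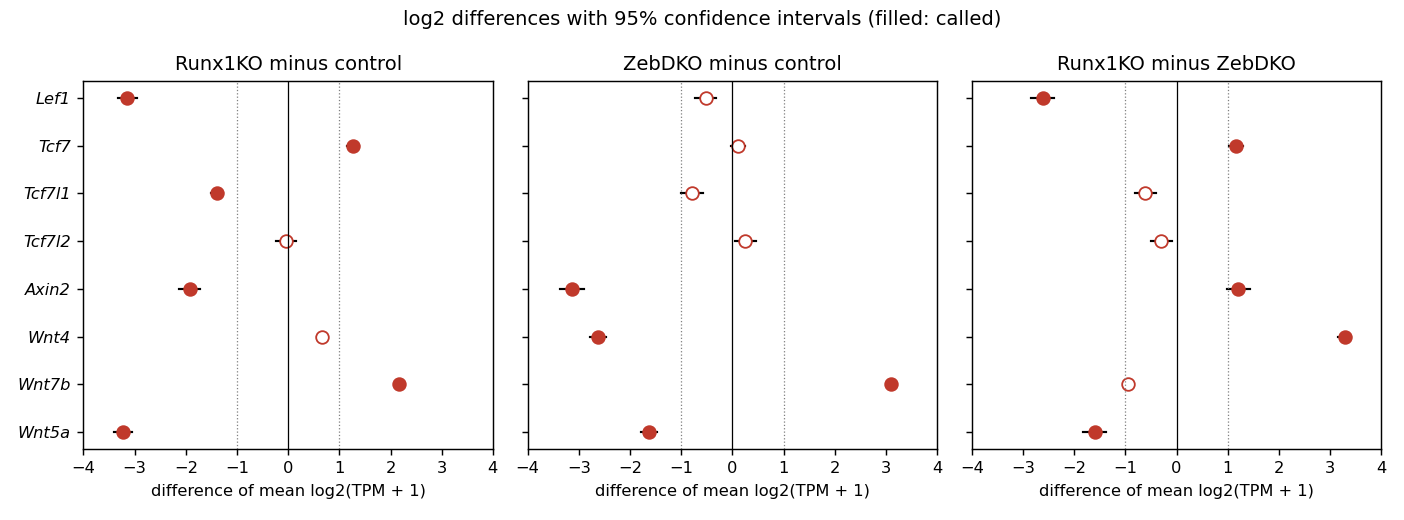
Differences of mean log2(TPM + 1) (x axis) with 95% confidence intervals for 8 genes in the 3 comparisons. Filled points were called (dotted lines mark the 2-fold limit), and Sfrp1 and Dkk1 are left out because they are listed at 0 in at least one whole group of every comparison shown. Wnt4 lies at 0.65 in the first panel, -2.63 in the second and 3.28 in the third.

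Of 89 further genes in lists of ligands, receptors, R-spondin signaling, antagonists, cytoplasmic and nuclear components and targets, 58 were tested in Runx1KO against control, with 5 called higher (8.62%, beside 7.91% of all tested genes) and 8 lower (13.8%, beside 5.10%), at a median difference of -0.093. In ZebDKO 55 were tested, with 5 higher (9.09%, beside 7.50%) and 7 lower (12.7%, beside 7.28%), at a median of -0.30. The single lists that follow are small, and their counts are read against the same shares.

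Besides Wnt4, Wnt7b and Wnt5a the list held 16 ligands, of which 6 were tested in Runx1KO (2 higher, 1 lower, median 0.70) and 4 in ZebDKO (1 higher, 1 lower, median -0.68). Wnt7a, closely related to Wnt7b, was at 0.7 to 1.1 TPM in control, 16.8 to 19.5 in Runx1KO and 14.0 to 15.4 in ZebDKO (log2 differences 3.34 and 3.08, adjusted p = 2.19e-07 and 1.85e-07). Of 3 genes that process or secrete the ligands, 2 were tested (Porcn and Wls, which modify Wnt proteins and carry them to the surface) and 0 were called in either knockout, with 1 at an unadjusted p under 0.05 in each.

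Of 16 receptors and co-receptors 13 were tested, with 1 called higher (7.69%, close to the 7.91% of all tested genes) and 3 lower (23.1%, beside 5.10%) in Runx1KO, and 0 higher and 3 lower (23.1%, beside 7.28%) in ZebDKO. Ror1, a receptor of Wnt5a, was at 10.6 to 11.9 TPM in control, 0.2 in each Runx1KO library and 8.2 to 10.2 in ZebDKO. It fell by 3.37 (SE 0.071, adjusted p = 4.2e-08) in Runx1KO, and the ZebDKO difference of -0.31 was not called. Fzd7 fell in both, from 43.2 to 51.6 TPM in control to 13.9 to 17.8 and 18.4 to 19.0 (log2 differences -1.48 and -1.28). Fzd3 rose in Runx1KO (2.3 TPM in each control library, 9.5 to 10.1 in Runx1KO, log2 difference 1.70, adjusted p = 3.28e-07) and stood at 1.0 to 1.2 in ZebDKO (-0.68, not called). Fzd8 fell in ZebDKO, from 5.7 to 6.3 TPM in control to 1.5 to 1.9 (-1.33, adjusted p = 6.35e-06). In Runx1KO Fzd8 was also below control, at 2.8 to 3.4 TPM (-0.74, adjusted p = 0.000127), but was not called. The difference between the knockouts (0.59) was not called either.

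R-spondins, which keep Frizzled receptors on the surface through Lgr receptors, were represented by Rspo3 at 17.4 to 19.0 TPM in control. It was listed at 0 in Runx1KO (adjusted p = 1.18e-08) and stood at 2.1 to 2.2 TPM in ZebDKO (log2 difference -2.59, adjusted p = 5.65e-08). Lgr6, an R-spondin receptor, was at 1.9 to 2.5 TPM in control and 2.3 in each Runx1KO library but 34.7 to 37.6 in ZebDKO (log2 difference 3.56, adjusted p = 5.24e-08). Over the list of 9, 5 were tested, with 0 higher and 1 lower in Runx1KO and 2 higher and 1 lower in ZebDKO.

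Besides Sfrp1 and Dkk1 the list of antagonists held 13 genes. In Runx1KO 5 were tested and called (2 higher, 3 lower, median -1.42), and in ZebDKO 3 of 4 tested were called (1 higher, 2 lower, median -1.70). Sfrp2, a relative of Sfrp1, was at 8.5 to 11.2 TPM in control, listed at 0 in Runx1KO and at 0.1 in each ZebDKO library. Dkk3 fell in Runx1KO alone among the calls, from 14.9 to 16.6 TPM to 5.0 to 5.6 (log2 difference -1.42, adjusted p = 1.49e-06), stood at 15.2, 15.2 and 15 in ZebDKO, and differed between the knockouts (-1.37, adjusted p = 6.02e-07).

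Of 17 cytoplasmic genes 14 were tested, and Axin2 was the single one called in either knockout. That is 7.14% called lower in each, beside 5.10% of all tested genes in Runx1KO and 7.28% in ZebDKO. Beta-catenin itself (Ctnnb1) was at 202.4 to 209.2 TPM in control, 187.3 to 193.9 in Runx1KO and 202.3 to 212.7 in ZebDKO. All 15 nuclear factors and cofactors were tested. In Runx1KO Lef1 and Tcf7l1 were called lower (13.3%, beside 5.10%) and Tcf7 higher (6.67%, beside 7.91%). In ZebDKO 0 were called, and the median differences were -0.40 in Runx1KO and -0.30 in ZebDKO. In ZebDKO, 12 of the 15 had an unadjusted p under 0.05, a count with no share over all genes beside it.

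**Figure D3:**
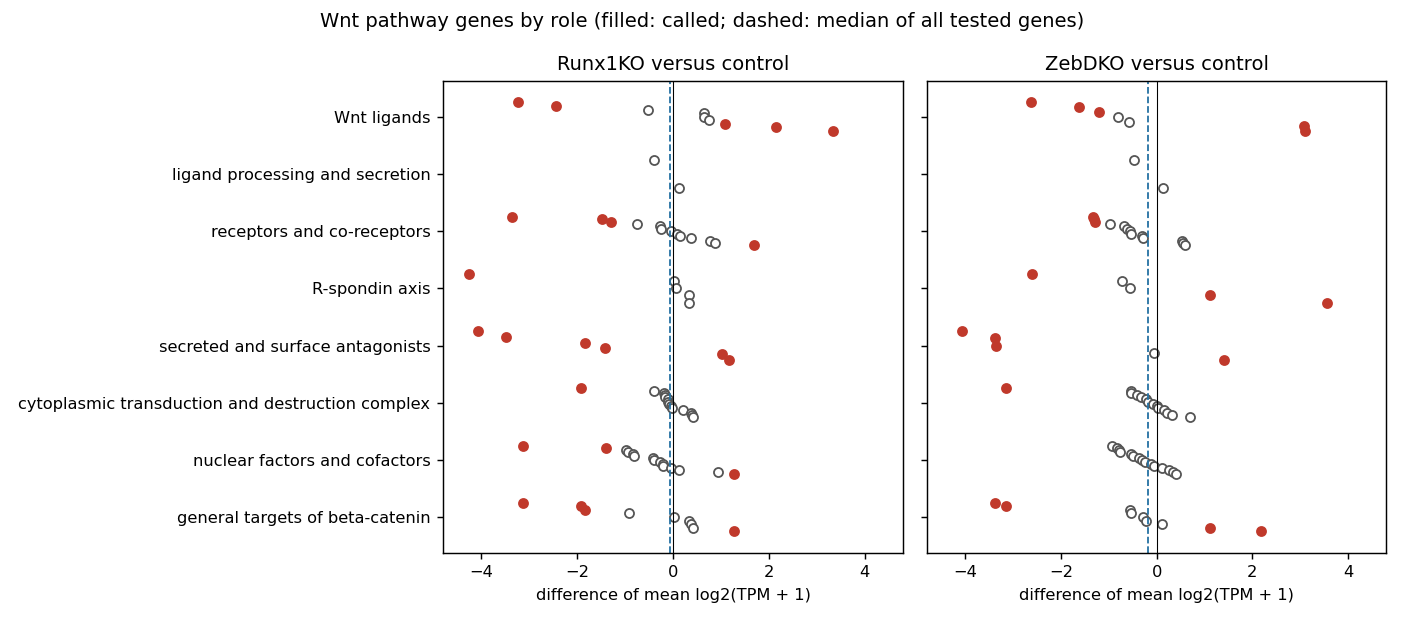
Differences of mean log2(TPM + 1) from control (x axis) for the tested genes of each pathway list, Runx1KO on the left and ZebDKO on the right. Each point is 1 gene, filled where called, spread vertically by rank, and the dashed line is the median of all tested genes (-0.059 and -0.18). Antagonists and ligands scatter over both sides, while cytoplasmic genes lie close to 0 except Axin2.

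Across the 10 genes, 9 had at least 1 dependent region in their domain, where 36.1% of 10708 tested genes did, and 7 had an induced region (43.8%). A Runx1 peak was near 8 (48.0%), a Runx2 peak in control near 9 (72.8%) and a Runx2 peak in Runx1KO near 8 (72.8%). These genes have wide domains, with a median of 452.3 kb against 85.5 kb over the tested genes, and a wider domain can hold more regions. Within 20 kb of the start the numbers were 5 with a dependent region (17.2% of tested genes), 3 with an induced region (27.2%) and 0 with a Runx1 peak (36.2%). The 5 were Lef1, Tcf7l2, Wnt4, Wnt5a and Sfrp1, of which Lef1, Wnt5a and Sfrp1 were called lower in Runx1KO and Tcf7l2 and Wnt4 were not called. The 3 with an induced region were Tcf7l1, Tcf7l2 and Wnt7b, of which Wnt7b rose and Tcf7l1 fell.

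**Figure D4:**
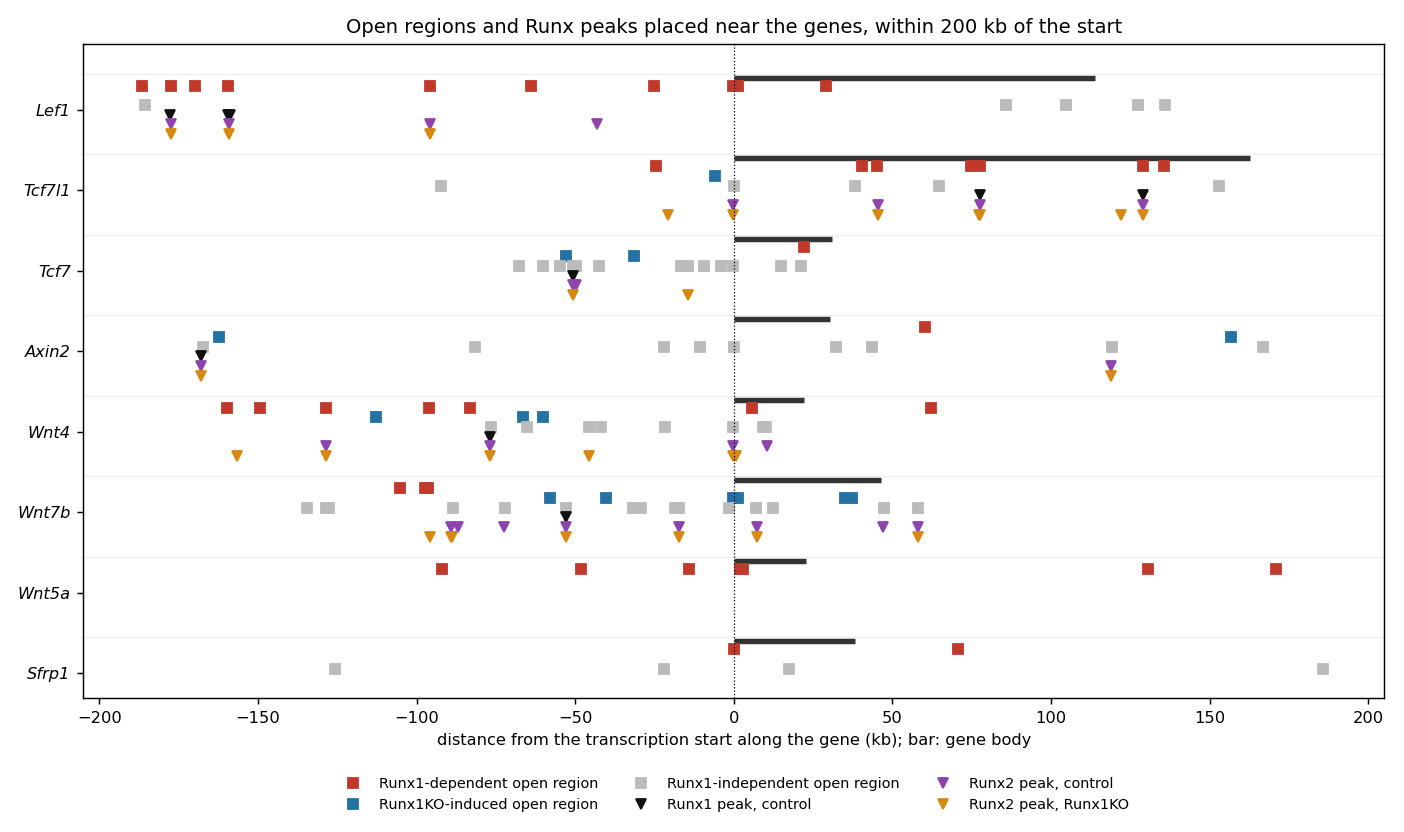
Open regions (squares) and Runx peaks (triangles) of 8 genes by distance of their centres from the transcription start in kb (x axis, along the direction of the gene), within 200 kb. The bar is the gene body. Dependent regions (red) line the Lef1, Tcf7l1, Wnt5a and Wnt4 loci, of which Wnt4 was not called in Runx1KO. Induced regions (blue) lie at the Wnt7b start, and no Runx1 peak (black) falls within 20 kb of a start.

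Runx1 peaks covered 5 of the 55 dependent regions near the 10 genes (9.09%), beside 11.8% of all 8741 dependent regions. Runx2 peaks in control covered 9 (16.4%, against 21.5% of all), and each of these 9 regions also had a Runx2 peak in Runx1KO although it was classed as lost there. Counts of motifs were taken in the central 300 bases of a region on both strands. The Runx core TGTGGT was in 13 of the 55 dependent regions (23.6%) and in 6 of 22 induced regions (27.3%), beside 35.5% of all dependent, 21.0% of all induced and 19.8% of all independent regions. ZEB words were in 19 of the 22 induced regions near these genes (86.4%) and 12 of the 55 dependent ones (21.8%), beside 62.7%, 18.7% and 33.3% of all induced, dependent and independent regions. The TCF/LEF words CTTTGAT and CTTTGAA were in 5 of the 55 (9.09%) and 1 of the 22 (4.55%), beside 10.3% of all dependent, 7.85% of all induced and 7.21% of all independent regions. The AP-1 site TGACTCA was in 17 of the 55 (30.9%) and 11 of the 22, beside 32.4%, 33.3% and 22.8% in that order. Neighbouring regions of a gene are not independent, and these shares carry no test.

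**Figure D5:**
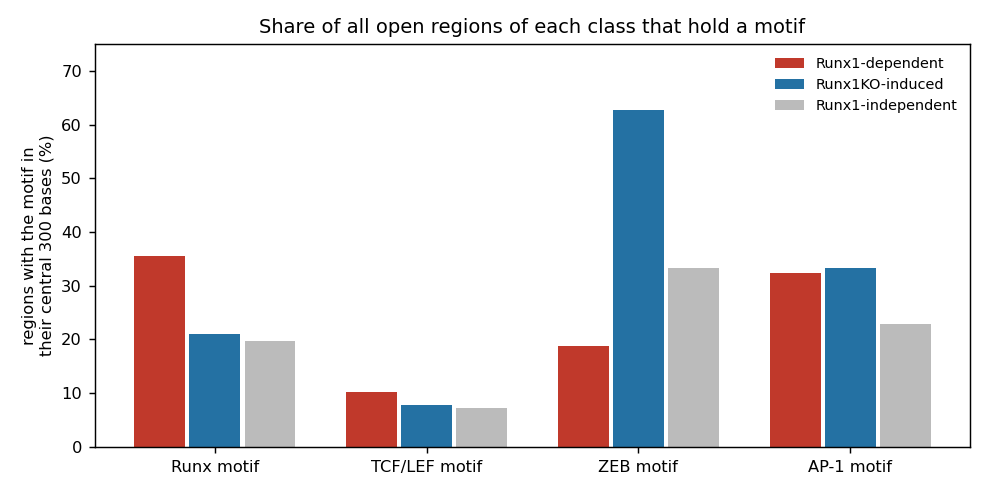
Share of all Runx1-dependent (8741), Runx1KO-induced (9427) and Runx1-independent (37481) open regions with a motif in the central 300 bases (y axis, percent, from 0). The ZEB bar is tallest for induced regions at 62.7% and the Runx bar is tallest for dependent regions at 35.5%.

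The genes whose log2(TPM + 1) followed Lef1 most closely over the 9 libraries, among 12467 genes tested in all comparisons, were Plekho2 (Pearson r = 0.9991), Sh3kbp1, Hlx, Ifi211 and Rnf144a (r = 0.9976 to 0.9982). Hlx, a homeobox factor, averaged 24.6 TPM in control, 1.63 in Runx1KO and 15.3 in ZebDKO. Closest to Axin2 were Cast, 4632415L05Rik, Slc14a1, Gprc5b and Crot (r = 0.9966 to 0.9979), of which Slc14a1, a urea transporter, averaged 86.0, 5.90 and 0.50 TPM in the same order. The points are 3 groups of 3 libraries, so each r mostly measures the 3 group means.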

How the data were processed

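RNA-seq values were deposited by the authors as TPM in 2 tables, one of 9 libraries (1 decimal) and one of 6 (2 decimals). Per the labels and the study's methods, reads were trimmed (Trim Galore), aligned to mm9 and counted over RefSeq genes with featureCounts 1.6.2. Depth cannot be recovered from TPM, and a TPM is relative to all RNA in a library. The deposited ChIP-seq peak lists give fold enrichment and −log10 q-values from MACS2 on combined replicates, so the peaks have no replicate error. The ATAC-seq lists give positions of regions, classed by the authors, with their own log2 fold changes and p-values, which were not used.

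Means of log2(TPM + 1) were compared with limma 3.58.1 in R 4.3.3 (variance trend, 6 libraries per fit, Benjamini-Hochberg over all tested genes, two-sided), after a test on simulated data. Genes were called over 2-fold at an adjusted p under 0.05. The pathway genes named are those called in either knockout against control, at most 4 of the largest change per list, and for Lef1 and Axin2 the 5 genes of highest correlation. Genes of other lists were named with their values where a statement turns on them. Gene positions are from GENCODE vM1 (NCBIM37, which is mm9) and 81.9% of the 13067 tested genes had one under the same symbol. Sequences were read from the same assembly.

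The 10 genes, the lists and the markers were chosen with earlier results of these data known. Alternatives were a pseudocount of 0.1 or 0.5, no filter or a 5 TPM filter, 2 other scalings, a replicate block, 1 fit over 9 libraries, no variance trend, a 1.3-fold limit, leaving out each library with the tested genes kept, the 6-library table, and other rules for placing peaks.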

Additional observations from a re-analysis of the deposited data

Results flagged for a closer look

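5 results met a rule for opposite effects: both knockouts differed from control at an adjusted p under 0.05 (limma) but in opposite directions, and the direct comparison of Runx1KO with ZebDKO was called. The log2 difference, Runx1KO minus ZebDKO, was 3.28 for Wnt4. It was 1.22 for Wnt9a, a ligand at 25.6 to 27.8 TPM in Runx1KO, 16.2 to 17.2 in control and 10.3 to 11.7 in ZebDKO. For the receptors Fzd3 and Fzd4 it was 2.37 and 1.31, with Fzd4 at 3.3 to 3.6, 1.4 to 1.9 and 0.7 to 0.9 TPM in the same order. For Lgr4, a receptor of R-spondins, it was 1.06, with 21.4 to 22.9, 16.9 to 17.4 and 9.6, 11 and 9.5 TPM. All 5 were higher in Runx1KO and lower in ZebDKO. The rule was applied to the Wnt genes only, so no share over all genes stands beside the 5. Lgr4 lay close to the 2-fold limit, and other scalings were not tried for Wnt9a, Fzd3, Fzd4 and Lgr4. The median over all genes in that comparison was 0.15. The 6 tested markers of metanephric mesenchyme moved both ways between the knockouts. In Runx1KO 1 was called higher (Pax2, 1.08), 16.7% beside 9.20% of all tested genes. Another 3 were lower (Gdnf -5.21, Osr1 -3.78 and Eya1 -1.39), 50% beside 6.59%. The part of these markers in the values of the 5 genes was not tested.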

How the results depend on the processing

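Leaving out each library in turn left 7 genes called in Runx1KO versus control, 5 in ZebDKO versus control and 5 in Runx1KO versus ZebDKO, each a range of 1 value over 6 fits. Same-numbered libraries did not deviate together (r = -0.025 to 0.031 over 9 pairs, beside -0.064 to 0.061 over 18 other pairs). Whether same-numbered libraries were prepared together cannot be told from these values. A fit with the replicate number as a block called 7, 5 and 5 genes. A filter of 5 TPM called 3 of the 5 genes it left in Runx1KO versus ZebDKO, since Axin2, Wnt5a and Tcf7l2 are no longer tested there. The 6-library table turned the difference of Tcf7l2 in Runx1KO from -0.044 to 0.039, neither called. It also gave other levels for some genes. Control means were 8.74 TPM against 18.3 in the 9-library table for Axin2, 10.9 against 21.5 for Wnt4 and 20.7 against 13.3 for Wnt7b. For Tcf7l1 they were 49.4 against 49.6. The log2 differences of these 4 genes in Runx1KO were -1.89, 0.68, 2.28 and -1.41 in the 6-library table. The cause was not tested. Counting peaks centred within 20 kb of a start gave 5 genes with a dependent region, 3 with an induced region, 0 with a Runx1 peak and 4 with a Runx2 peak in control, and assigning each peak to the nearest start within 100 kb gave 4 genes with a Runx1 peak, since both rules reach less far than the domains. The other 39 counts across settings stayed within 1.5 times. Of 238 differences of single genes under the settings that keep all libraries, 234 kept their sign and call. TPM without counts gives no depth, so low values such as those of Tcf7l2, Lef1 in Runx1KO and Wnt5a in Runx1KO have no counting error attached.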
